A study of Equus caballus with 2 samples.

Results

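Tags on ECAUn, the part of the horse draft assembly EcuCab2 that holds contigs not assigned to a chromosome, are described here. A tag is a stretch of the genome over which the authors' pipeline clustered the aligned sperm RNA reads, and every tag whose deposited location began with chrUn was taken, with no threshold. This gave 302 of the 19257 deposited tags, while 18952 lay on placed chromosomes and 3 on the mitochondrial (Mt) genome. The study sequenced total RNA from ejaculated sperm of 2 reproductively normal, fertile stallions, with 1 library per stallion on the SOLiD platform, after gradient purification intended to remove somatic cells and immature sperm. No treated, subfertile or other control animals were sequenced, so all values belong to a single condition. The measurement is average coverage (AC), the normalized number of reads over a tag, and 1 value per tag was deposited for both samples together. For 119 of the 302 tags, among them all 93 with AC of at least 100, AC in each sample could be read in the copy of the study's table used here, and the deposited number equalled the larger of them in all 119. For the other tags this was not checked. AC is therefore given without a replicate error and no test between samples was made. The number of reads behind a tag was not analysed here, and how precise each AC is cannot be stated. In bulk RNA of this kind, fewer cells carrying a transcript and less RNA per cell cannot be told apart. The tags carry no gene names, and the sperm identity of the RNA was not checked from them.

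Unplaced contigs usually hold sequence that occurs in many near-identical copies, which short reads and draft assemblies place poorly. The best known are the genes of the ribosomal RNAs, which stand in tandem repeats, each transcribed as a long precursor that runs from an external spacer through 18S, 5.8S and 28S rRNA, the spacers being removed as the rRNAs mature. Mature sperm make little or no new RNA and carry RNA left from spermatogenesis, in which rRNA is usually fragmented. Since ECAUn joins unrelated contigs end to end, a distance between tags on it is meaningful only within a contig, and contig borders were not used here.

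The sequences that represent the main kinds of tag are printed first, each 5′ to 3′ on the plus strand of EcuCab2 as deposited, in lower case apart from the marked letters. The tag with the highest AC of all, which the study lists as 28S rRNA, is shown because it is far shorter than the rRNA. Capitals mark its 127 bases that were identical to the 28S rRNA tag on ECA1 in an alignment of 138 bp with 92.0% identity.
chrUn:41671499-41671648: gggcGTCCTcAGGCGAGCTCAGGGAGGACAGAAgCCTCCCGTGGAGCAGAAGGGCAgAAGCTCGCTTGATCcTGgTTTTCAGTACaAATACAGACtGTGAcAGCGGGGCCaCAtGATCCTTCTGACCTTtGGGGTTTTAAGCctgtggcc

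The only ECAUn tags outside the rRNA-like ones that held the letters GTTCGANNC, the core of the B box, an internal promoter element of tRNA genes, are shown because they stood out in AC from their neighbours. Capitals mark the motif, here on the opposite strand.
chrUn:53430762-53430819: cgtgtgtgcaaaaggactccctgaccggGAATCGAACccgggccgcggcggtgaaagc
chrUn:53441351-53441425: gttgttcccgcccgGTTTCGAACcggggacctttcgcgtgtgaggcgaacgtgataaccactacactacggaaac

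Copies of a sequence at distant positions are shown by 3 sets, since their AC values bear on how each tag can be read. Capitals mark the stretch shared within a set, on the opposite strand where the sequences run in reverse.
chrUn:62099392-62099418: ccTCCCCAACCTGAGCCTGTGTGTCTC
chrUn:67466111-67466137: aaGAGACACACAGGCTCAGGTTGGGGA
chrUn:67964995-67965021: aaGAGACACACAGGCTCAGGTTGGGGA
chrUn:7436490-7436522: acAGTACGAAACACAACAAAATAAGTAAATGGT
chrUn:9062312-9062344: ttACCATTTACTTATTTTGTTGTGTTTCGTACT
chr12:19448048-19448075: atGAAGTAGCTTGAAAAAAGAGAGAGAG
chrUn:11773461-11773488: ttCTCTCTCTCTTTTTTCAAGCTACTTC

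The first 80 bases of 5 members of the largest family of similar tags are shown because they began at the same base, at positions far apart. Capitals mark bases that differ from the longest tag, which is the first.
chrUn:25498352-25505823: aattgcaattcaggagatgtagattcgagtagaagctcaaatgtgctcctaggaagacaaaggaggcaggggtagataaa
chrUn:28152338-28154248: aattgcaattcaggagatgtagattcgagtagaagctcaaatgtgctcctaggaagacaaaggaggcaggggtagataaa
chrUn:36143842-36146411: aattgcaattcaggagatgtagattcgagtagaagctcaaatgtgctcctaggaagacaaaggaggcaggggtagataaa
chrUn:54184931-54192223: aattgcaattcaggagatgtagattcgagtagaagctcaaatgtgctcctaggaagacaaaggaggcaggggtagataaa
chrUn:62185973-62191561: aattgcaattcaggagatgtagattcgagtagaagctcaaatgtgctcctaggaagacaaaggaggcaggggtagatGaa

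The short unmasked tags with the highest AC are shown last, with no letters marked.
chrUn:73088247-73088289: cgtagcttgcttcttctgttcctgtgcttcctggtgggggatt
chrUn:363746-363782: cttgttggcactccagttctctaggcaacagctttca
chrUn:16711611-16711640: ggaacactgtccatgacacgctgtgcagta

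ECAUn tags were longer and more often high in AC than tags on placed chromosomes. Tags are not replicates and many share sequence, so these differences are given as counts and medians without a test. The median AC was 25.8 on ECAUn, where the lowest tag had 8.17 and the highest 272950.1, and 14.5 on placed chromosomes, where they had 2.0 and 242048.9. AC of at least 100 was seen for 93 of the 302 tags (30.8%), where 8.3% of all tags reached it. AC of at least 1000 was seen for 15 tags (4.97%, against 1.07% of all tags), and AC of at least 10000 for 14 tags (4.64%, against 0.291% of all tags). ECAUn tags thus included 14 of the 56 tags in the genome above 10000. The median length was 86.5 bp on ECAUn and 44.0 bp on placed chromosomes, and tags shorter than the 50 bp read made up 35.1% and 52.8%. Tags of at least 1000 bp made up 18.9% of ECAUn tags and 0.981% of placed tags.

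The excess of high AC was greatest among the longest tags. Of the 57 ECAUn tags of at least 1000 bp, 53 (93.0%) reached AC of 100, with a median AC of 383.6, while 33 of 186 placed tags of this length (17.7%) did so, with a median of 22.1. Between 100 and 999 bp the median AC was 21.9 on ECAUn and 13.3 on placed chromosomes, between 50 and 99 bp it was 17.7 and 12.7, and under 50 bp it was 21.3 and 16.0. The median on ECAUn was therefore the higher in every length class, by a small margin except in the longest.

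**Figure D1:**
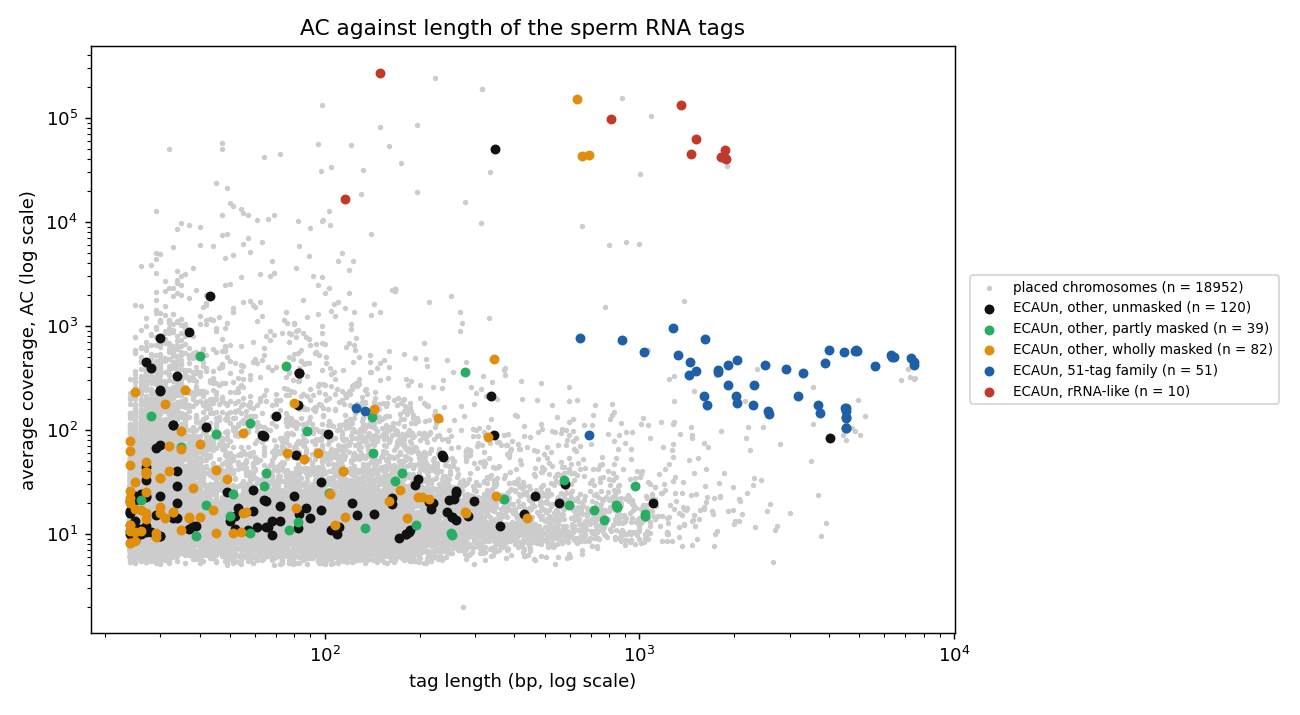
Each point is 1 tag, with its length in bp on the x axis and its AC on the y axis, both on log scales; placed tags are grey and ECAUn tags are coloured by class, the classes being defined from sequence after the values were seen. The rRNA-like tags lie above AC of 10000, and the 51-tag family forms a band between AC of 89.0 and 948.9 up to 7472 bp.

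Letters in lower case in the deposited sequences are those that the assembly masks as repeats. Wholly masked tags numbered 84 of 302 (27.8%) on ECAUn and 19.7% of placed tags, and tags with no masked letter numbered 138 (45.7%) and 67.7%. The median AC of wholly masked ECAUn tags was 23.6, that of tags with no masked letter was 20.9, and that of partly masked tags was 135.8. The median GC content was 49.5% on ECAUn and 47.3% on placed chromosomes.

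For description the 302 tags were divided into 5 classes by their sequence. They comprised 10 tags similar to rRNA tags, 51 tags of the largest family of similar tags, and 82 wholly masked, 39 partly masked and 120 unmasked tags outside these. AC multiplied by length was summed over tags as a rough measure of coverage. Where checked, AC was the larger of both samples' values, and identical copies each count, so the sum is not the bases sequenced in either library. The rRNA-like tags, 3.31% of the tags, held 77.0% of this sum over ECAUn. The 51-tag family, 16.9% of the tags, held 5.86% of it. Together these classes held 64.5% of the ECAUn tags with AC of at least 100. In the classes of other tags the median AC was 22.9 for wholly masked, 21.2 for partly masked and 19.6 for unmasked tags, and 12.2%, 15.4% and 14.2% of them reached AC of 100.

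**Figure D2:**
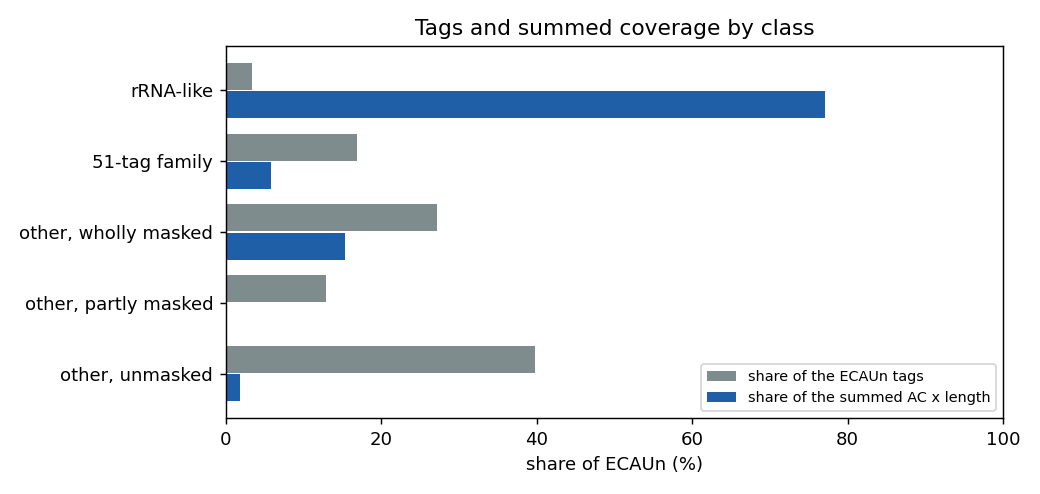
Bars give the share (%) of each class among the 302 ECAUn tags in grey and its share of the summed AC multiplied by length in blue. The 10 rRNA-like tags account for 77.0% of the summed coverage. The 82 other wholly masked tags account for 15.3% and the 120 other unmasked tags for 1.79%. Of these other tags, 3 wholly masked and 1 unmasked had AC of at least 10000, and all lay within 10000 bp of rRNA-like tags.

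The rRNA-like tags comprised 3 that the study lists as rRNA and 7 that were similar to them or to the 5 rRNA tags listed on other chromosomes, the limits being an alignment of 40 bp, 50% of the tag and 80% identity. For 28S rRNA, the RNA of the large ribosomal subunit, there were 3 tags. The 150 bp tag printed above (chrUn:41671499-41671648) had AC of 272950.1. A tag of 1356 bp (chrUn:55096760-55098115) had AC of 134119.3 and was 95.3% identical over 792 bp to the 28S rRNA tag on ECA1. A tag of 811 bp (chrUn:55274673-55275483) had AC of 98779. The highest of the 28S-like tags was thus the shortest, and AC over the 3 tags varied more than AC over the long 18S-like tags.

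For 18S rRNA, the RNA of the small subunit, there were 7 tags, of which 6 were at least 1400 bp long. The tag listed as 18S rRNA in the study (chrUn:64060479-64061987, 1509 bp) had the highest AC of them, 62499. The other long ones had AC of 49279 (chrUn:94505704-94507572, 1869 bp), 45275 (chrUn:55074047-55075506, 1460 bp), 42484 (chrUn:94757553-94759362, 1810 bp), 41481 (chrUn:116212815-116214683, 1869 bp) and 40354 (chrUn:63405884-63407765, 1882 bp). These 5 were 99.4 to 99.9% identical to the listed tag over 1060 to 1466 bp, and the highest AC of the 6 was 1.55 times the lowest. The seventh tag (chrUn:9130004-9130119) was 116 bp long, was 82.6% identical and had the lowest AC of the rRNA-like tags, 16714. On placed chromosomes 55 tags passed the same limits, with a median AC of 1509 and a median length of 88.0 bp, against 47277 and 1485 bp on ECAUn.

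Of the 14 ECAUn tags with AC of at least 10000, 4 did not pass the limits of similarity, and each lay within 10000 bp of an rRNA-like tag. A wholly masked tag of 632 bp (chrUn:55098361-55098992, AC of 153853.4) lay between the 1356 bp 28S-like tag and a wholly masked tag of 658 bp (chrUn:55099516-55100173, AC of 42759). The latter was similar to a tag of 690 bp (chrUn:63401048-63401737, AC of 44464), and these are a pair in the grouping by similarity. The fourth, of 347 bp (chrUn:63404330-63404676, AC of 49800), had no masked letter and was the highest unmasked ECAUn tag. Whether these 4 belong to an rRNA gene was not determined. Together, the 22 ECAUn tags within such distances of rRNA-like tags held 94.0% of the AC multiplied by length summed over ECAUn and 51.3% of that over all tags, and the remaining ECAUn tags held 3.29% of that over all tags.

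Next to these tags stood a family of 8 GC-rich tags with low AC. The median GC content of its members, of 466 to 1039 bp, was 72.7%, and their AC lay between 14.98 and 23.05, the highest being chrUn:35135144-35135609. For 5 of the 8, an 18S-like tag lay 2355 to 2675 bp away, and all 5 lay on the side of its 5′ end. The strand was read from alignment with the tag listed as 18S rRNA, which held the letters CTGGTTGAT on its plus strand at base 48. These letters occur near the 5′ end of 18S rRNA. Among the 18S-like tags of the 5 loci, only chrUn:94505704-94507572 held them, at base 17. AC of the 18S-like tag was 2265 to 3022 times that of the GC-rich tag in its locus. No tag on a placed chromosome was similar to the family. The members at chrUn:55078182-55079220 and chrUn:63410129-63411167 were both 1039 bp long, differed at 5 bases and had AC of 14.98 and 15.39.

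The locus with the most tags was that of chrUn:63405884-63407765, where 7 tags were ordered from the 5′ side as follows. The GC-rich tag with AC of 15.39 came first and the 18S-like tag with AC of 40354 second. Tags of 142 bp with AC of 59.7 and of 77 bp with AC of 10.9 followed directly after it. Then came the unmasked 347 bp tag with AC of 49800, a 64 bp tag with AC of 88.4, and the 690 bp tag with AC of 44464. High and low tags thus alternated within a span of 10120 bp.

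**Figure D3:**
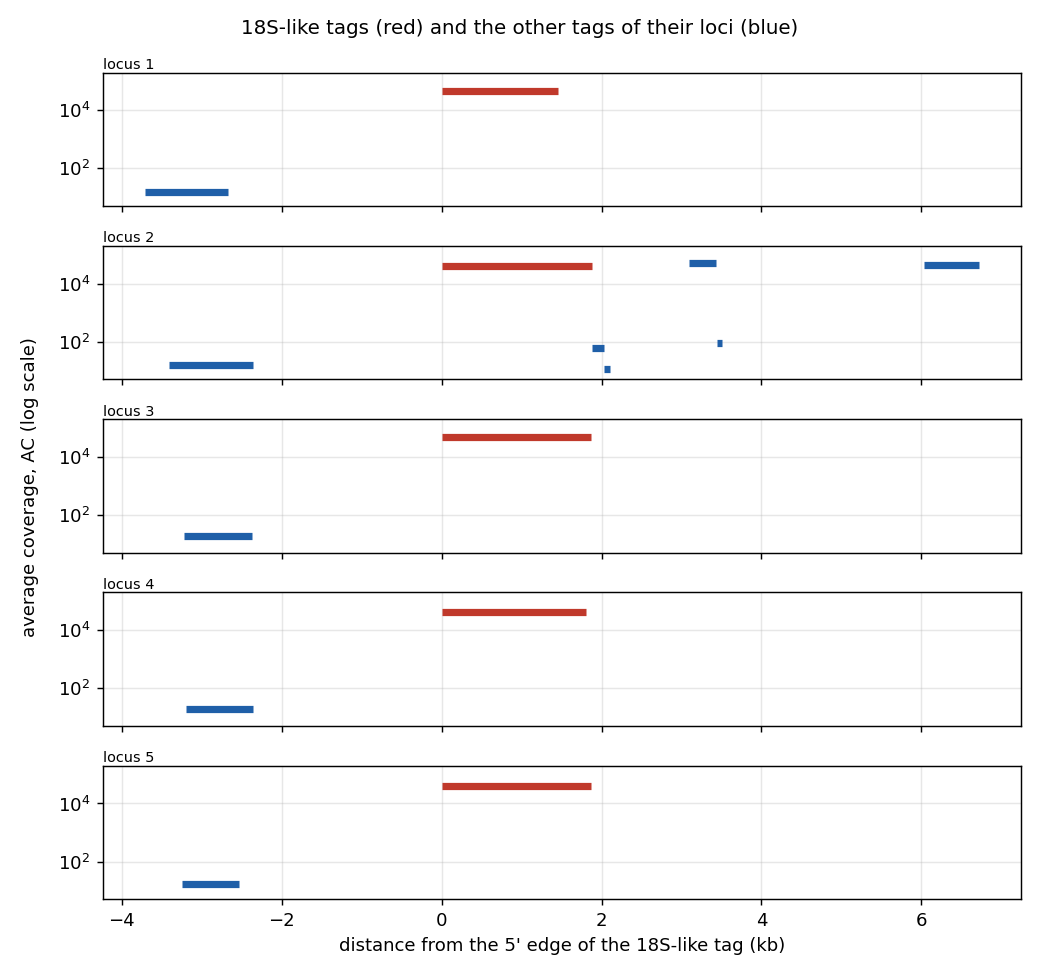
Each panel is 1 locus, with the distance in kb from the 5′ edge of the 18S-like tag on the x axis and AC on a log scale on the y axis; lines span the tags, red for the 18S-like tag and blue for the others. In all 5 loci a tag with AC of 14.98 to 18.76 lies on the 5′ side, and locus 2 holds 5 further tags on the 3′ side with AC of 10.9 to 49800.

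The 51-tag family consisted of long tags that were mostly not masked and resembled each other at many positions of ECAUn. Member length had a median of 2590 bp and extended from 126 to 7472 bp, and all of the 5 longest ECAUn tags were members. The median AC was 366.0, the lowest 89.0 and the highest 948.9, and 50 of the 51 had AC of at least 100 (98.0%, against 8.3% of all tags). They made up 46 of the 57 ECAUn tags of at least 1000 bp. On placed chromosomes 46 tags were similar to at least 1 member, with AC of 10.46 to 677.8 and a median of 136.6, and 38 of these lay on ECA23, 4 on ECA13, 2 on ECA3 and 1 each on ECA18 and ECA27. Of the 12 placed relatives of at least 4000 bp, 5 were 96.4 to 98.4% identical to the longest ECAUn tag and had AC of 303.0 to 388.5. The other 7 were 80.7 to 84.4% identical over the aligned part and had AC of 80.7 to 135.5. Among these 7, a 4527 bp tag on ECA23 had 80.7% identity and AC of 113.6. A 4447 bp tag on ECA13 had 81.7% identity and AC of 90.1. Both aligned with the longest tag over less than 50% of their own length, and the rest over at least 80%. Whether both are copies of another sequence was not tested.

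The tags had long stretches without a stop codon. Of the 46 members of at least 1000 bp, 32 (69.6%) held a stop-free run of at least 400 codons in some reading frame, with a maximum of 1437 codons. The same was true of 13 of 17 similar placed tags of that length (76.5%), of 36 of 169 other placed tags (21.3%), and of 0 of 7 rRNA-like ECAUn tags. Length bears on these shares, since a short tag cannot hold such a run and the median length was 3252 bp for the 46 members and 1334 bp for the 169 other placed tags. Among tags of at least 2000 bp the shares were 24 of 33 (72.7%) in the family, 13 of 14 (92.9%) in similar placed tags and 16 of 30 (53.3%) in other placed tags, whose median lengths were 4495, 4923 and 2398 bp. The family was not matched to a named protein here.

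The longest tag (chrUn:25498352-25505823) was 7472 bp long and had AC of 448.5. The next were chrUn:56167112-56174575 (7464 bp, AC of 417.0), chrUn:54184931-54192223 (7293 bp, AC of 486.3), chrUn:59938834-59945256 (6423 bp, AC of 505.3) and chrUn:73990732-73997062 (6331 bp, AC of 498.1). In all, 36 further tags aligned with the longest over at least 80% of their own length, with 82.9 to 99.2% identity and a median of 97.1%. Of the 5 tags whose first 80 bases are printed above, 4 were identical over these bases and the fifth differed at 1 base.

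AC was not even along this sequence. The 9 tags that lay before base 3100 of the longest tag had AC of 89.0 to 269.2 with a median of 175.5. The 5 that lay between bases 2600 and 4700 had AC of 563.1 to 948.9 with a median of 743.2. These groups did not overlap in AC. The 7 that began after base 4700 had AC of 162.7 to 466.3 with a median of 373.8, and the 16 that crossed these limits had AC of 153.3, in a tag of 134 bp, to 590.9 with a median of 492.2. The limits were chosen after the values were seen.

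The step was also seen between neighbouring tags at single loci. The pairs of this sequence are made of tags already counted in the groups above, so they are not independent support. At chrUn:24441644-24446515, covering bases 2617 to 7472, AC was 587.3, and in the tag 6 bp away (chrUn:24446522-24449111), covering bases 3 to 2601, it was 143.4. At chrUn:52670384-52675301 AC was 576.8 and in the tag 6 bp away (chrUn:52675308-52676000) it was 89.0, the lowest of the family. At chrUn:98541462-98542496 AC was 563.1 and in the tag 7 bp away (chrUn:98542504-98544807) it was 175.5. At chrUn:73089978-73091260, which starts at base 3076 and has the highest AC of the family, AC was 948.9, and in the tag 3 bp away, which ends at base 3073, it was 174.4. In all, 7 loci had 2 such tags of this sequence, the first ending by base 3100 and the other starting after base 2600, and in all 7 the tag nearer the start of the longest tag was the lower, by 3.10 to 6.48 times. At a further locus the neighbour across this break was a copy of a second sequence, described below, and there the tag nearer the start was the higher, with AC of 211.2 (chrUn:62625475-62627507) against 162.9 (chrUn:62627510-62632004). The 4 pairs of neighbours with breaks elsewhere in this sequence differed by 1.03 to 4.85 times, the closest being chrUn:62185973-62191561 (AC of 410.8) and the tag that follows it (AC of 422.2). Tags nearer the start were not low everywhere. The 43 bp tag near base 1352, described below, had AC of 1930, above both tags that follow it. On ECA23, placed relatives covering bases 1098 to 1474 had AC of 339.2 and 397.3. The longer relatives beside them, covering bases 2625 to 7470 and 2449 to 7470, had AC of 97.8 and 89.4. Further ECA23 loci had the same order. Relatives ending by base 1582 had AC of 450.8, 284.7 and 359.4, and the relatives near them that reached further had 80.7, 135.5 and 118.9. On ECA13 the order was the other way, with AC of 10.46 and 45.9 in relatives ending by base 2372 and 90.1 in the relative starting at base 3177. The relative with AC of 90.1 aligned with the longest tag over less than 50% of its own length. Placed relatives were not compared in full.

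**Figure D4:**
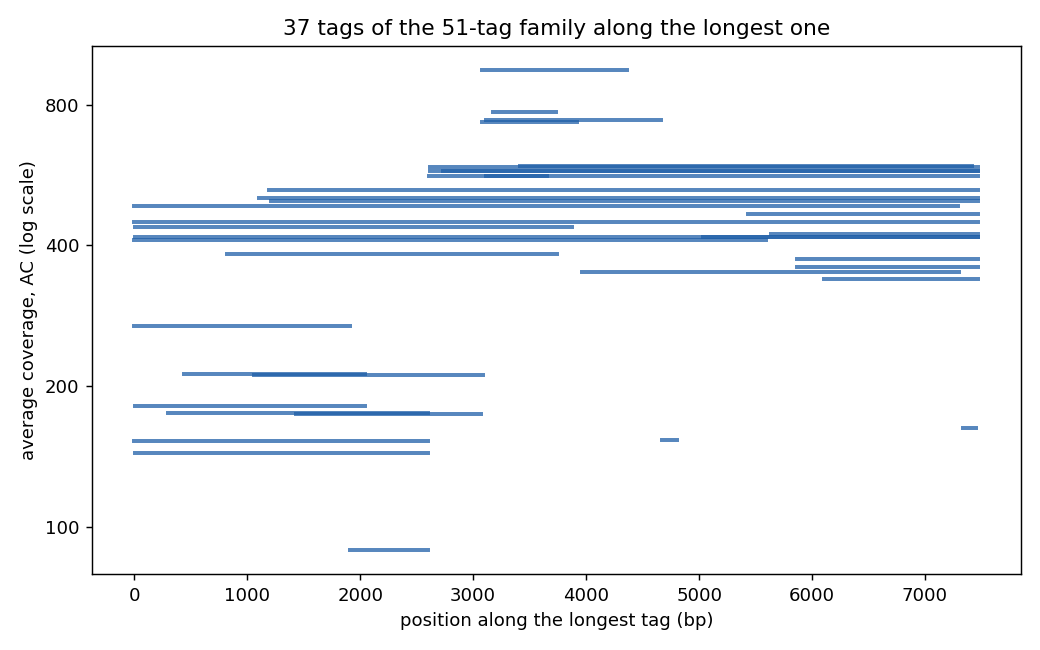
Each line is 1 of 37 tags of the 51-tag family, the longest included, drawn from the first to the last base of the longest tag that it aligned with (x axis, bp), at its AC on a log scale (y axis). The tags that end by base 3100 lie at or below AC of 269.2, and those between bases 2600 and 4700 at or above 563.1.

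The remaining 14 members aligned with the longest tag over less than 80% of their length and were copies of a second sequence. All 14 aligned over at least 80% of their length with the longest of them (chrUn:52654232-52658766, 4535 bp, AC of 150.6), with 96.8 to 98.3% identity. The 7 members of at least 4000 bp had AC of 103.2 to 162.9. The 3 members under 2000 bp, which all covered the last part of this sequence, from base 3027 or later, had AC of 366.0, 445.2 and 524.8. Copies covering only its end were thus higher than the full-length copies. For 6 of the 14, the nearest tag of the first sequence lay 11522 to 11716 bp away. Its AC was 2.59 to 5.69 times that of the second. For 1, the pair 2 bp apart given above, the ratio was 1.30. For the other 7 no copy of the first sequence lay within 20000 bp. The ratios compare the nearest tag alone, not whole copies. Some nearest tags covered only the later part of the first sequence, and the next tags, ending by base 2601, were lower. Those had AC of 143.4, 181.1, 152.4 and 89.0, where the second copies had 103.2, 144.1, 103.6 and 150.6.

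The ECAUn tag with the highest AC outside the rRNA-like loci was a 43 bp tag (chrUn:73088247-73088289), printed above, with AC of 1930. It lay 41 bp before a member of the 51-tag family, which aligned with the longest tag from base 1436. Compared base by base over its 43 bp, the short tag differed at 8 bases from the longest tag at base 1352. No blastn alignment of it met the limits, which included the E-value, so it was not counted in the family. It may still be a piece of the same sequence, which was not tested. Across all tags under 50 bp, 41 had a higher AC. Tags of 37 bp (chrUn:363746-363782) and 30 bp (chrUn:16711611-16711640) followed among short unmasked tags, with AC of 872.6 and 772.4. The 5 highest tags without masked letters and outside the rRNA-like ones also included a member of the 51-tag family of 647 bp (chrUn:41645060-41645706, AC of 772.5).

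The letters GTTCGANNC, searched on both strands, were found in 8 ECAUn tags (2.65%) and in 0.587% of all tags. Of the 8, 6 were the long 18S-like tags and the other 2 are those printed above. The 75 bp tag (chrUn:53441351-53441425) had AC of 416.2, while its neighbour on ECAUn had AC of 13.26. The 58 bp tag (chrUn:53430762-53430819) had AC of 116.3, while its neighbour had AC of 14.47. The 75 bp sequence was also found on the opposite strand of ECA14, in a tag with AC of 19.0, so that the 2 copies differed 22.0 times in AC. Neither sequence was matched to a named tRNA here, and a match of the motif does not show a tRNA gene.

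Identical sequence at several positions was common on ECAUn. Tags with the same sequence on either strand, allowing 3 bases at the ends, formed 14 sets with at least 1 ECAUn tag, which held 25 of the 302 tags (8.28%), against 0.769% of all tags in such sets. In 10 of the 14 sets all copies had the same AC, and in 4 of these 10 no other tag of the whole table had that value. Over all tags, 46 of 63 such sets had a single AC, so equal values were not particular to ECAUn. The 27 bp set printed above had AC of 39.2 at each of its 3 positions. The 33 bp pair (chrUn:7436490-7436522 and chrUn:9062312-9062344) had AC of 112.6 at both, and the 28 bp sequence shared with ECA12 (chrUn:11773461-11773488) had AC of 397.1 at both. In these sets the copies on opposite strands shared all but the 2 bases at 1 end. Unmasked copies of 83 bp (chrUn:5666384-5666466 and chrUn:35568998-35569080) had AC of 354.7 at both. Of the 4 sets with unequal AC, 3 were shared with placed chromosomes, namely the 75 bp sequence on ECA14 and 2 of 30 bp. A 30 bp tag had AC of 236.9 on ECAUn (chrUn:29402310-29402339) and 115.4 on ECA5, and another had 71.1 on ECAUn (chrUn:51531796-51531825) and 23.7 on ECA6. The fourth was a wholly masked pair of 114 bp with AC of 40.08 and 40.13. The methods of the study state that reads aligning similarly well at several places were removed, and how identical copies came to share a value was not tested.

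Similarity reached well beyond identical copies. Of the 302 tags, 150 (49.7%) were similar to another tag, 119 of them to another ECAUn tag and 31 to placed tags alone, and 94 tags under 40 bp could not meet the limit of length. The same share over all tags was not computed, so whether 49.7% is high cannot be stated. The ECAUn tags formed 12 families of at least 3 tags and 8 pairs. After the 51-tag family, the largest was a family of 12 wholly masked tags of 76 to 440 bp with AC of 14.2 to 59.7, none of which reached 100. Its highest member was the shortest (chrUn:44252831-44252906, AC of 59.7) and its lowest the longest. The families of 8 GC-rich and of 7 18S-like tags are described above.

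Of the smaller families, 6 are given here. A family of 5 unmasked tags, 4 of them between positions 27112449 and 27254193, had AC of 14.87 to 34.09 and its highest member at chrUn:27210846-27211043. A family of 3 unmasked tags in the same region had AC of 12.04 to 30.45, highest at chrUn:27352042-27352619. Of the others, the highest members were chrUn:96264919-96264977 (AC of 26.3), chrUn:60030142-60030206 (AC of 20.8), chrUn:28718517-28718698 (AC of 14.06) and chrUn:68670946-68671130 (AC of 10.4). In these 6 the highest AC was 34.1.

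Most ECAUn tags had no close neighbour, but placed tags were not grouped in this way for comparison. With gaps of at most 1000 bp, the 302 tags fell into 258 position groups, of which 233 held a single tag and 4 held at least 4 tags. The group at chrUn:48674808-48676088 held 6 tags whose AC rose from 17.0 at its start through 132.1 and 356.9 to 477.5 in a wholly masked tag of 345 bp (chrUn:48675463-48675807) and fell to 97.0 and 38.2 at its end. Its middle tags were thus the highest, and none of the 6 was similar to another ECAUn tag. The group of 6 tags at chrUn:60029973-60032076 held all 4 members of a family of similar tags of 52 to 65 bp with AC of 11.11 to 20.82, beside a 34 bp tag with AC of 40.3 (chrUn:60031652-60031685). The group of 5 tags around the highest member chrUn:56908695-56908743 (AC of 25.4) had no tag below AC of 14.95. The fourth group belonged to the 18S-like locus described above.

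No ECAUn tag was similar to the Mt tags under these limits (0 of 302), while 111 placed tags (0.586%) were. The lowest AC on ECAUn, 8.17, belonged to a 24 bp wholly masked tag (chrUn:48872219-48872242), the shortest length in the table, which had an identical copy with the same AC at chrUn:77343004-77343027. A tag outside the rules for naming was singled out after its values were seen, since it was the longest unmasked ECAUn tag. It was 4042 bp long (chrUn:37355762-37359803), had AC of 84.2 and a stop-free run of 1125 codons, and was not a member of the 51-tag family.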

How the data were processed

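Total sperm RNA of 2 stallions was sequenced as 50 bp single-end SOLiD reads. The authors aligned the reads to EcuCab2 with NovoalignCS, removed reads that aligned similarly well at several places, retried unaligned reads after shortening them, clustered the alignments into tags with the EXP pipeline and normalized linearly to the smaller sample. The deposited AC is a signal value (coverage), 1 per tag, with the location and the soft-masked sequence. From these, length, GC content, masked share, position groups and stop-free runs were computed with Python 3.11.15 and numpy 2.4.6. Tags were aligned with each other by blastn 2.17.0 (E-value limit 1e-05, word size 11, no low-complexity filter), and similarity required 80% identity, 40 aligned bp and 50% of the tag. For families the 50% referred to the shorter tag, and tags were joined through shared partners. The methods were tested on simulated data. No test between groups was made, and read counts per tag, and so the depth behind each value, are unknown here. No genome of this build was used.

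The tags named in the text were the 10 with the highest AC, the 5 longest, the highest of each position group of at least 4 tags and of each family of at least 3, the 5 highest without masked letters and rRNA similarity, the 5 highest similar to the Mt tags, and the lowest. Further tags illustrate a described group. A family of similar tags that this rule would name is not reported here, and statements on the smaller families do not cover it. The members and lists were chosen with earlier results of these data known. Alternatives were other AC thresholds, a minimum length of 50 bp, joining neighbours within 100 bp, weighting by length, and other limits of masking, gap and similarity. Leaving out each sample was planned and not run.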

Additional observations from a re-analysis of the deposited data

How the results depend on the processing

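The number of ECAUn tags with AC of at least 100 stayed within 1.5 times its value under the other thresholds and countings tried, except that it fell from 93 to 43 without the 51-tag family. The median AC of 25.8 became 33.6 over tags of at least 50 bp, 25.04 with tags joined within 100 bp, 383.6 when each tag was weighted by its length, 25.6 with copies counted once and 20.2 without the 51-tag family and the rRNA-like tags. The median length of 86.5 bp became 95.0 bp with joined tags. Wholly masked tags numbered 34 instead of 84 among tags of at least 50 bp, and rRNA-like tags 4 instead of 10 when 80% of the tag had to align. The other 17 of 26 alternatives left their counts within 1.5 times the value reported. Leaving out tags of the 51-tag family or rRNA-like tags, counting copies once and the low-complexity filter were chosen after seeing the data. No paired analysis was possible because the deposited data hold 1 value per tag for both samples. Leaving out each sample was not run on them for the same reason, and the study's own list of values by sample was not used for it.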
